A study of Mus musculus with 2 samples.

Results

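Bach2 belongs to the bZIP transcription factors, proteins that pair through a leucine zipper and grip DNA with an adjoining basic stretch. The 10 genes described here encode other bZIP proteins that can pair with Bach2, or that bind the same kinds of DNA site. They are the Jun genes Jun, Junb and Jund, the Fos genes Fos and Fosl2, the related factors Batf and Jdp2, the CNC factors Bach1 and Nfe2l2 (Nrf2), and the small Maf gene Mafk. They were chosen by symbol, and every probe that the platform annotation pairs with one of these symbols was taken. Of the 10 genes, 9 had a probe and 8 were detected on at least 1 array, out of 16593 genes with a probe and 7611 detected. Fosl2 had no probe in the annotation used here and was not analysed here.

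AP-1 is the collective name for dimers of Jun proteins with Fos, Batf or other bZIP proteins, which bind the sequence TGAGTCA and relay signals of the T cell receptor to cytokine and effector genes. Bach2 pairs with small Maf proteins such as Mafk and binds sites with the same core, where in lymphocytes it acts mainly as a repressor. Bach1 and Nrf2 share the small Maf partners and act on antioxidant and heme genes, Bach1 as a repressor released by heme and Nrf2 as an activator.

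The samples were T cells sorted from spleen as CD4+ CD25+ GITR+, the surface phenotype of regulatory T cells (Treg). They came from a Bach2 KO sample (male by its label, 7 weeks old) and a WT sample (male by its label, 6 weeks old), both of the C57BL/6 background. The sources used here do not give the kind of Bach2 deletion, which cells of the mouse lacked Bach2, or how many animals each sample holds. Each genotype had 1 Illumina bead array, on which oligonucleotides attached to beads report 1 intensity per probe, so the differences below carry neither a p-value nor an error between replicates, and age differs along with genotype.

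On the arrays, 10373 of 25697 probes were detected in Bach2 KO and 10431 in WT, at a detection p-value under 0.01. The deleted gene had no probe in the annotation used here, so the KO label could not be checked. All 9 T cell and Treg markers were detected on both arrays and lay within 1.5-fold, Foxp3 at -0.10 and Cd4 at -0.01 (log2 difference, Bach2 KO minus WT, as throughout). Other probes of Foxp3 differed by -0.37 and 0.11. Sex-linked genes did not match the label of the Bach2 KO sample, as both Xist and Y-linked genes were detected there. Xist, which is expressed from the silenced X chromosome of female cells, had a deposited intensity of 393 in Bach2 KO (detected) against 12.3 in WT (not detected). The Y-linked genes Kdm5d and Eif2s3y had 120 and 983 in Bach2 KO, against 827 and 3451 in WT, and were detected on both arrays. Uty, also Y-linked, had 38.9 in Bach2 KO (not detected, detection p-value 0.0113) against 98.85 in WT (detected). Whether the Bach2 KO sample held cells of both sexes is not given in the labels, and sex-linked expression, like age, cannot be told apart from genotype here. With 1 array per genotype, no result below can be given without that sample.

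Stretches just upstream of RefSeq's transcription starts (GRCm38.p6) are shown for 6 members, since these are the genes whose levels the results turn on or whose upstream window held a searched motif. Capitals mark a motif match, and each line runs 5′ to 3′ on the gene's own strand.
Fos, chr12:85473770-85473889, forward strand: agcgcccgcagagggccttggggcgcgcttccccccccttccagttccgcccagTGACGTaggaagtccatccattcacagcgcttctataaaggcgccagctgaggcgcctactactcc
Jdp2, chr12:85598985-85599104, forward strand: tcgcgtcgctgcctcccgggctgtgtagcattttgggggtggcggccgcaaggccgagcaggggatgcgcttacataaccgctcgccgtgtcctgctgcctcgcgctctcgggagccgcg
Batf, chr12:85686600-85686719, forward strand: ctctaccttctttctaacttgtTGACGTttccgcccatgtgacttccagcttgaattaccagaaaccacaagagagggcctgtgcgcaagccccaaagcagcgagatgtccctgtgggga
Jun, chr4:95052223-95052342, reverse strand: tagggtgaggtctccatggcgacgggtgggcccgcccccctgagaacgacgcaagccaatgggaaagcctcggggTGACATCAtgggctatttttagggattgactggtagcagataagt
Mafk, chr5:139791416-139791535, forward strand: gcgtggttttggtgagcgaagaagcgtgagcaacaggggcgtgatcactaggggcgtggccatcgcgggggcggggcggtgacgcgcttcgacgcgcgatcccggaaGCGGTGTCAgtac
Nfe2l2, chr2:75704794-75704913, reverse strand: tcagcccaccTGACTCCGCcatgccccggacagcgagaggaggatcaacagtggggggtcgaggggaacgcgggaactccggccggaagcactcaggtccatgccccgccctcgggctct
The lines for Fos, Jdp2, Batf, Jun and Mafk are the 120 bases before the start (for Jdp2, the most upstream of 3 starts), and that for Nfe2l2 holds the bases from 250 to 131 before it. The motifs were TGAGTCA (the AP-1 site), TGACGTCA (the cyclic AMP response element), TGACGT (a shorter core that every TGACGTCA also holds), TGACATCA, TGACNNNGC (the core of the antioxidant response element) and the CArG box (the serum response factor site). Both strands of the 250 bases before each start were searched, and all 10 genes had an entry.

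TGACGT was found 66 bases before the start of Fos and 98 before that of Batf. For Jdp2 it was found 114 bases before the second of the 3 starts and not in the window printed. TGACGT occurs in 6.47% of the 32851 upstream windows of the table. TGACATCA, known in the Jun promoter as a site of Jun dimers with Atf2, lay 45 bases before the start of Jun and occurs in 2.93% of windows. TGACNNNGC was found for Nfe2l2 at 240 bases, as TGACTCCGC, and for Mafk at 13 bases on the opposite strand, as TGACACCGC. It occurs in 10.2% of windows. No member's window held TGAGTCA (4.46% of windows), TGACGTCA (1.55%) or the CArG box (1.47%). Bases further upstream than 250 were not searched, so a missing match does not show that a gene lacks the site. A match is a description of the letters only.

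Among the members, Fos was lower and Jdp2 higher in Bach2 KO than in WT Treg, while Junb, Jund, Batf, Bach1, Mafk and Nfe2l2 were at closer levels. Of the 8 detected members, 1 was at least 1.5-fold higher (Jdp2), 1 was at least 1.5-fold lower (Fos) and 6 lay within 1.5-fold. Over all 7611 genes compared, 8.15% were at least 1.5-fold higher in Bach2 KO and 6.77% at least 1.5-fold lower, so 1 member of 8 in each direction is near the share of genes in general. No member reached 2-fold, beside 3.27% of all genes at least 2-fold higher and 1.55% at least 2-fold lower. The median difference of the 8 members was -0.03, and that of all genes compared was -0.028. The plot of member levels shows the same values probe by probe.

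**Figure D1:**
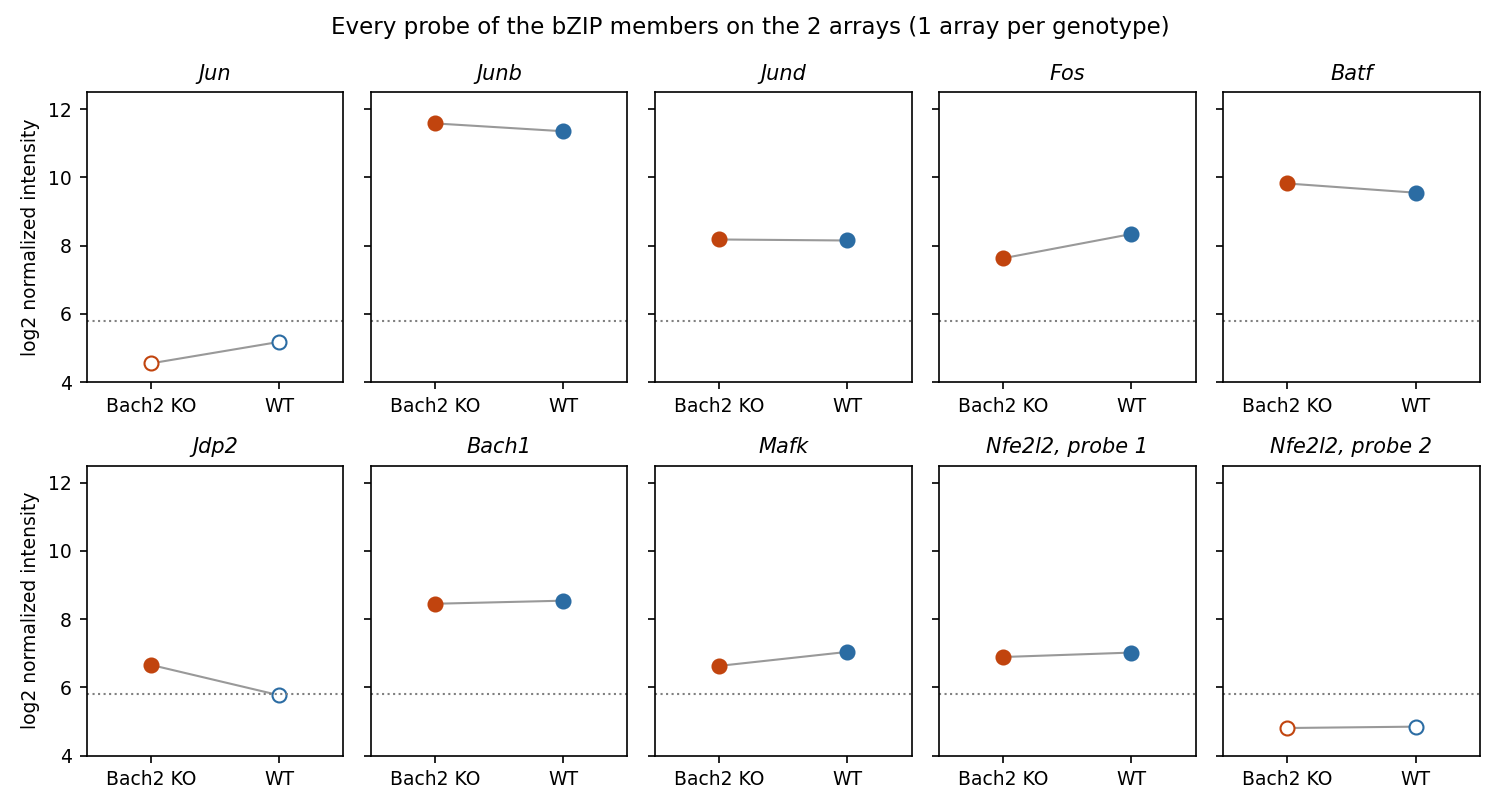
Log2 normalized intensity of every member probe on the Bach2 KO array (left point of each panel) and the WT array (right point), 1 array per genotype. Filled points were detected, open points were not, and the dotted line is the dimmest detected probe of the WT array (5.80). Fos lies lower and Jdp2 higher in Bach2 KO, and Jun and the second Nfe2l2 probe lie below the line on both arrays.

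Fos encodes c-Fos, the immediate early partner of Jun proteins. Its probe had a deposited intensity of 186 in Bach2 KO against 303 in WT, and normalized log2 values of 7.63 in Bach2 KO and 8.34 in WT. The difference of -0.71 corresponds to 1.64-fold lower in Bach2 KO, and 3.88% of all genes compared were at least as low. The only scatter that can be read from 1 array per genotype is that between probes of the same gene, whose differences had an SD of 0.261 over the 798 genes with mean log2 levels of 7 to 9 and several detected probes. This SD leaves out all error between samples, so it does not show whether the difference of Fos exceeds the spread between mice.

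Fosb, a close relative of Fos, had 42.4 in Bach2 KO against 66.1 in WT (-0.48). Its level in Bach2 KO was close to background (log2 5.87, where the dimmest detected probe of that array had 5.81). Of 20 genes listed as immediate early, most of which stimulated cells switch on within minutes, 12 were detected. One of these was at least 1.5-fold higher in Bach2 KO, none was at least 1.5-fold lower, and their median was -0.15 (0.01 with median scaling). The shares of all genes compared were 8.15% higher and 6.77% lower. Over the 10 immediate early genes that both arrays detected, which leaves out Myc and Nr4a2, the middle difference was 0. Egr1, another gene driven by serum response factor, differed by -0.01, Dusp1 by 0.05 and Zfp36 by 0.01. The activation marker Cd69 differed by -0.40, and Nr4a2 was at least 1.26-fold lower. Klf2, counted in this list although a factor of resting cells, differed by -0.57. Myc, detected in WT alone, had 35.7 in Bach2 KO against 68.4 in WT, the lowest bound of the list (-0.58, just short of 1.5-fold). It passed 1.5-fold with an offset of 1 (-0.75), as did Fosb (-0.62), and with a detection p-value under 0.05 (-0.70). With an offset of 50 Myc was at -0.39 and Fosb at -0.32. On the series matrix values Myc was at -0.25 and Fosb at -0.21. Ier3, the gene past 1.5-fold, was 1.70-fold higher, but within 1.5-fold with an offset of 50 (0.55) and on the series matrix values (0.37). Among 5 detected heat shock genes, which can mark cell handling, none reached 1.5-fold in either direction, with Hspa8 at 0.01 and Dnajb1 at -0.52.

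Most detected neutrophil markers were lower in Bach2 KO along with Fos. Of 9 with a probe, 7 were detected and 6 of these were at least 1.5-fold lower, beside 6.77% of all genes, while Mmp9 had 383 in Bach2 KO against 309 in WT (0.25). The deposited intensities of the 7 summed to 988 in Bach2 KO and 3355 in WT, with S100a9 at 229 against 1242. Ngp and Elane were not detected on either array. Among the 5 neutrophil markers detected on both arrays, 4 were at least 1.5-fold lower. In a sorted bulk sample, fewer cells of a type and less RNA per cell cannot be told apart, and the part of neutrophil RNA in the Fos difference was not tested.

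Jdp2 encodes a small Jun dimerization protein that mainly represses AP-1 sites. Its probe had 85.9 in Bach2 KO (detection p-value 0) against 39.2 in WT (detection p-value 0.0113), just short of detection in WT. The normalized log2 values were 6.66 in Bach2 KO and 5.77 in WT. Because the gene was not detected in WT, the Bach2 KO value was set against the dimmest detected WT probe, and Jdp2 was at least 1.82-fold higher in Bach2 KO (a log2 bound of 0.87). Of all genes compared, 4.19% were at least as high. At mean log2 levels under 7 the SD between probes of a gene was 0.318 (109 genes). The level lies close to background, and the bound was 0.39 on the series matrix values, under 1.5-fold.

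Batf dimerizes with Jun proteins and, with Irf4, drives effector programs including that of tissue Treg. Its probe had 900.0 in Bach2 KO against 719 in WT, and log2 values of 9.82 in Bach2 KO and 9.55 in WT. The difference of 0.27 is 1.20-fold, and 20.5% of all genes were at least as high. Of all genes, 42.9% differed by at least as much in either direction. Fos, Jdp2 and Batf are consecutive protein-coding genes on chromosome 12 in RefSeq's annotation, in that order, and their differences of -0.71, at least 0.87 and 0.27 ran in both directions. Batf2 and Batf3 were not detected on either array.

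**Figure D2:**
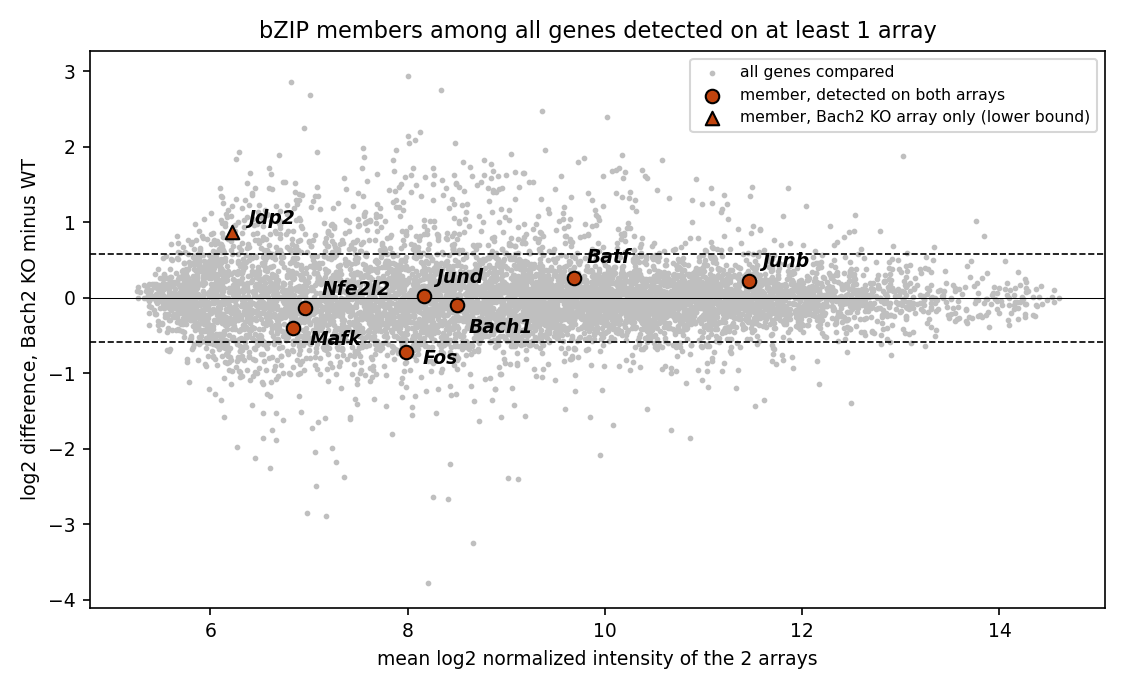
Log2 difference (Bach2 KO minus WT) against mean log2 normalized intensity for all 7611 genes compared (grey) and the 8 detected members (orange). Circles were detected on both arrays, the triangle (Jdp2) is a lower bound, and grey genes detected on 1 array are also drawn at their bound. Dashed lines mark 1.5-fold. Jdp2 lies above the upper line and Fos below the lower one, and the other 6 lie between them.

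The Jun genes, whose products are the usual partners of Fos and Batf, showed no difference past 1.5-fold where they were detected. Junb had 3108 in Bach2 KO against 2557 in WT, and log2 values of 11.58 in Bach2 KO and 11.35 in WT. Its difference of 0.22 was 1.17-fold, and 24.0% of all genes were at least as high. Of all genes, 50.8% differed by at least as much in either direction. Jund had 279.9 in Bach2 KO against 264 in WT, and log2 values of 8.18 in Bach2 KO and 8.15 in WT, a difference of 0.03. Jun, which encodes c-Jun, had -6.45 in Bach2 KO (detection p-value 0.683) against 19.6 in WT (detection p-value 0.0877). As neither array detected it, it has no fold here.

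Bach1, the closest relative of Bach2, had 341 in Bach2 KO against 351 in WT, and log2 values of 8.45 in Bach2 KO and 8.54 in WT. Of all genes, 76.4% differed by at least as much as its -0.10, which became 0.02 with median scaling. Mafk had 83.6 in Bach2 KO against 114 in WT, and log2 values of 6.63 in Bach2 KO and 7.04 in WT. This is a difference of -0.40, or 1.32-fold lower, and 13.6% of all genes were at least as low. Nfe2l2 had 103.7 in Bach2 KO against 112 in WT at its brighter probe, a difference of -0.13 (log2 values of 6.89 in Bach2 KO and 7.02 in WT). Its dimmer probe had 5.94 in Bach2 KO against 7.64 in WT and was not detected on either array. Of the 6 members within 1.5-fold, 5 differed by less than 0.3 in either direction and Mafk by more.

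Other genes of the same families, where detected, lay within 1.5-fold in the setting reported. Of 9 further CNC and Maf factors, 4 were detected and none reached 1.5-fold. Nfe2l1 differed by 0.01, the small Maf gene Mafg by -0.15 (613.6 in Bach2 KO against 660.3 in WT), Nfe2 by 0.05 and Maf by a bound of 0.09. Of 7 further AP-1 subunits, Fosb (above) and Atf2 (-0.24) were detected and both were lower (median -0.36). Fosl1 and Atf3 were not detected on either array. Keap1, which holds Nrf2 for degradation, differed by -0.05, and its partner Cul3 by -0.27.

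Of 26 bZIP factors outside these families, 16 were detected, 1 was at least 1.5-fold higher and 1 at least 1.5-fold lower. The median of these 16 was -0.10, and the shares of all genes past 1.5-fold were 8.15% upwards and 6.77% downwards. Nfil3, a repressor that binds D-box elements, had 1347 in Bach2 KO against 659 in WT and was 1.95-fold higher. Dbp, an activator at D-box elements, had 1615 in Bach2 KO against 2457 in WT and was 1.56-fold lower, although within 1.5-fold with median scaling. Tef, which acts at the same elements, differed by -0.31. Crem, a cyclic AMP responsive factor, was 1.49-fold higher at its brightest probe, with other probes at 0.68 and 0.00. Ddit3 (CHOP), a stress factor, was 1.48-fold lower at its brightest probe, with another probe at -0.29. Xbp1 was 1.24-fold higher and Cebpb 1.18-fold higher.

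Of 25 kinases, phosphatases and other proteins that set AP-1 activity, 16 were detected. One was at least 1.5-fold higher and 1 at least 1.5-fold lower, which is near the shares of all genes (8.15% and 6.77%). Map3k1, upstream of the Jun kinases, had 1334 in Bach2 KO against 2002 in WT and was 1.54-fold lower, although within 1.5-fold with median scaling. The Jun kinase gene Mapk8 differed by -0.46 and Mapk9 by -0.11 (0.15 and -0.29 at other probes of Mapk9). Dusp4, a phosphatase of MAP kinases, was 1.51-fold higher at its brightest probe, and another probe had a difference of 0.15. It lay within 1.5-fold with an offset of 50 (0.54), on the series matrix values (0.45), with normexp without detection p-values (0.56) and with the mean of its probes (0.38). Map2k4, an activator of Jun kinases, differed by 0.07, and Cops5, a Jun coactivator, by 0.32.

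Among proteins that bind next to AP-1, 2 of 9 detected genes were at least 1.5-fold higher and 1 at least 1.5-fold lower. The shares of all genes compared were 8.15% and 6.77%. Irf4, the partner of Batf and Jun at composite sites, had 1192 in Bach2 KO against 736 in WT and was 1.55-fold higher, but within 1.5-fold on the series matrix values (0.57). Irf8, which can take the same place, had 785 in Bach2 KO against 417 in WT and was 1.80-fold higher. Nfatc1, the partner of Fos and Jun at cytokine promoters, differed by -0.05, and Ets1 by -0.14. Stat3 was 1.54-fold lower at its brightest probe (within 1.5-fold with median scaling and with the mean of its probes), whereas its other probes differed by -0.09 and 0.16.

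**Figure D3:**
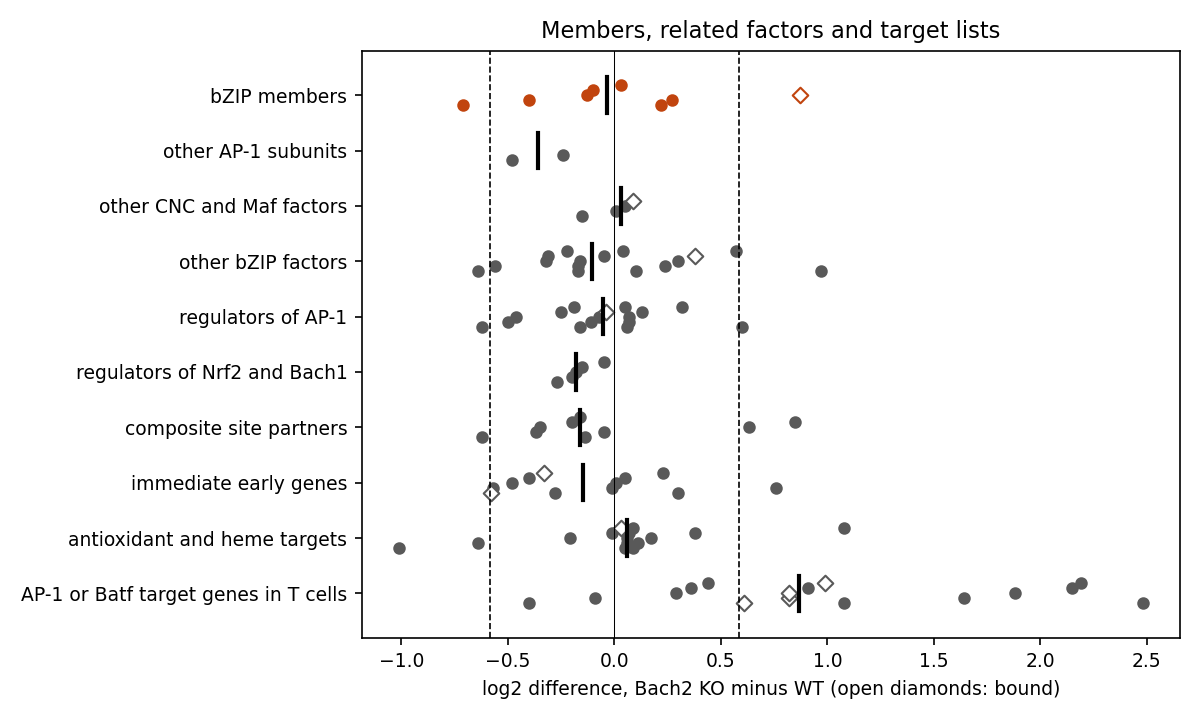
Log2 difference (Bach2 KO minus WT) of each detected gene in the bZIP members (orange) and in 9 lists of related genes (grey). Diamonds are bounds for genes detected on 1 array, black bars are list medians with bounds, and dashed lines mark 1.5-fold. Most members and most genes of the factor lists lie between the dashed lines, and most T cell target genes of AP-1 or Batf lie to the right of 0.

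Of the detected genes known as targets of AP-1 or Batf in T cells, 11 of 16 were at least 1.5-fold higher in Bach2 KO, among them cytokine genes, and 5 lay within 1.5-fold. This list was put together with earlier results on these arrays known, and its direction is a description. The list held 21 genes, and none passed 1.5-fold downwards, beside 8.15% of all genes upwards and 6.77% downwards. On the series matrix values 7 of 16 passed upwards. Their median was 1.23, or 0.86 with genes detected in Bach2 KO alone at their bound. Among the 12 detected on both arrays, 7 were at least 1.5-fold higher. Il4 had 587 in Bach2 KO against 113 in WT (4.57-fold), and Il10, an inhibitory cytokine, had 357 in Bach2 KO against 100.4 in WT (3.12-fold). Csf2, the gene of GM-CSF, had 94.8 in Bach2 KO against 9.65 in WT (not detected) and was at least 1.98-fold higher. Its bound was within 1.5-fold on the series matrix values (0.45). Il21, a target of Batf with Irf4, had 81.7 in Bach2 KO against 21.0 in WT (not detected) and was at least 1.76-fold higher. The bound of Il21 was within 1.5-fold with an offset of 50 (0.56) and on the series matrix values (0.36). Klrg1 was 1.88-fold higher, whereas the costimulator gene Icos differed by 0.44 (0.67 at its other probe) and Gadd45b by 0.36. Tnfrsf9 differed by 0.29 (0.56 at its other probe) and Ctla4 by -0.09. Cd69 was the lowest of the list (-0.40).

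Other marker genes moved with this list. For the counts that follow, the shares of all genes compared were 8.15% at least 1.5-fold higher and 6.77% at least 1.5-fold lower. All 6 detected markers of mast cells, basophils and eosinophils were at least 1.5-fold higher, with deposited intensities summing to 1428 in Bach2 KO and 491 in WT. Ms4a2 and Epx were not detected on either array. Of 7 detected NK cell markers, 5 were at least 1.5-fold higher and 1 (Prf1) at least 1.5-fold lower, with sums of 4323 in Bach2 KO and 3153 in WT, and Ncr1 and Gzma were not detected on either array. Prf1 differed by 0.01 at its other probe and lay within 1.5-fold with median scaling, on the series matrix values and with the mean of its probes. On the series matrix values 2 of the 7 NK cell markers were at least 1.5-fold higher. Among the 5 NK cell markers detected on both arrays, 3 were at least 1.5-fold higher. All 12 detected proliferation genes were at least 1.5-fold higher, with sums of 20650 in Bach2 KO and 7971 in WT. Markers of other cells rested on few detected genes: 2 of 3 B cell, 1 of 3 plasma cell, 2 of 3 CD8 T cell and 2 of 6 macrophage or dendritic cell markers passed 1.5-fold upwards and none passed it downwards. Among genes detected on both arrays, 2 of 2 B cell, 0 of 2 plasma cell and 1 of 2 CD8 T cell markers passed upwards. In the setting reported, the CD8 T cell markers that passed were Ccl5 and Klrk1, whereas Cd8b1 differed by 0.20 (0.15 at its other probe). Neither array detected Cd8a or Gzmk (CD8 T cell), Ms4a1, Pax5 or Blk (B cell), or Sdc1 (plasma cell). Itgam, Itgax and C1qa of the macrophage or dendritic cell list also went undetected. With an offset of 50 or on the series matrix values, 0 plasma cell and 1 CD8 T cell marker passed upwards. The B cell count stayed at 2. The part of these cells and of proliferation in the target gene differences was not tested.

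Target genes of Bach1 and Nrf2 showed no common direction. Of 24 antioxidant and heme genes, 15 were detected, with a median of 0.07. Among these, 1 was at least 1.5-fold higher, 2 at least 1.5-fold lower and 12 within 1.5-fold. The shares of all genes compared were 8.15% higher and 6.77% lower. Srxn1, which restores oxidized peroxiredoxins, had 105 in Bach2 KO against 41.4 in WT (2.11-fold higher) and was close to background in WT. On the series matrix values it was within 1.5-fold (0.51). Osgin1 had 268.5 in Bach2 KO against 545 in WT (2.02-fold lower), and Blvrb, a biliverdin reductase, was 1.56-fold lower. Blvrb lay within 1.5-fold with median scaling (-0.54), with an offset of 50 (-0.58) and on the series matrix values (-0.51). Gclm, a glutathione synthesis subunit, differed by 0.05, and the ferritin gene Fth1 by -0.01. Hmox1, the best known target of Bach1, was not detected on either array. Blvrb is also abundant in red cells, and the red cell gene Hba-a1 had 96.6 in Bach2 KO against 261 in WT. Of 6 red cell and platelet markers with a probe, 3 were detected. Among these, 2 were at least 1.5-fold lower, beside 6.77% of all genes, and Car2 differed by -0.31. Alas2, Pf4 and Ppbp were not detected on either array. The part of red cell RNA was not tested.

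The 8 member differences were recomputed under 10 alternative settings. Fos stayed below 0 in each, between -0.76 and -0.52. Jdp2 lay between 0.39 and 1.09 in those that gave it a value. A bound for a gene detected in Bach2 KO alone cannot fall below 0, so most settings could not change the sign of Jdp2. With no detection filter and with a detection p-value under 0.05 it had no bound, and its difference was 0.89. Batf ran from 0.24 to 0.39, Junb from 0.21 to 0.36 and Mafk from -0.46 to -0.22. Bach1 was the only detected member whose difference took both signs. Fos was past 1.5-fold in all settings except the series matrix values.

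**Figure D4:**
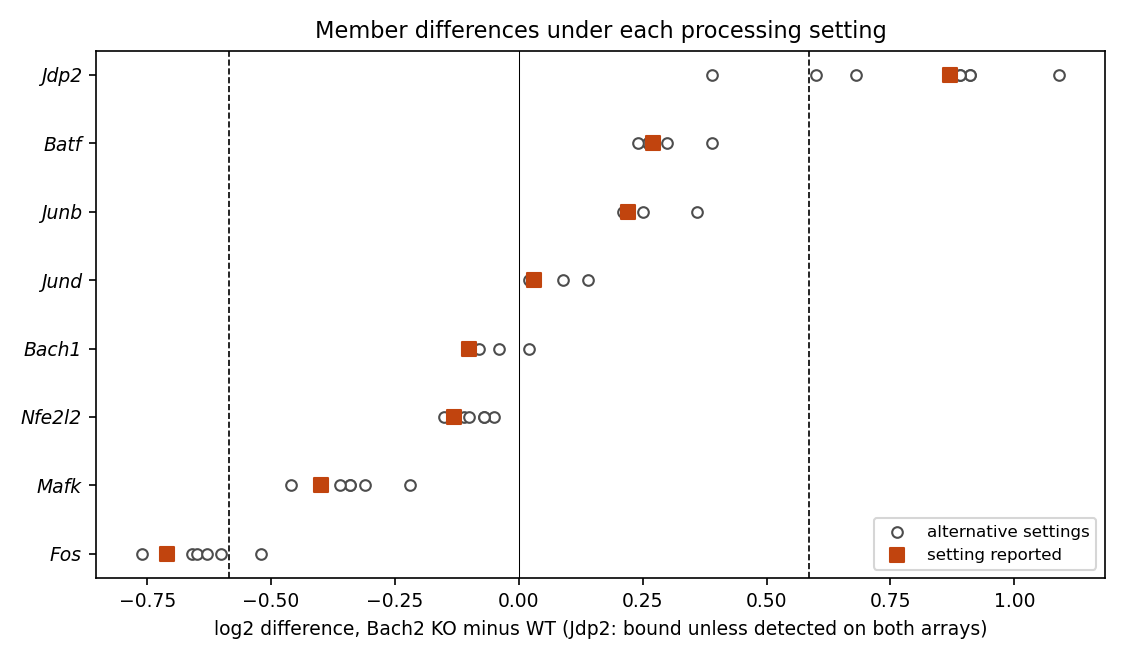
Log2 difference (Bach2 KO minus WT) of the 8 detected members in the setting reported (squares) and under each alternative (open circles). Dashed lines mark 1.5-fold. Fos stays left of 0 and Jdp2 right of 0, although a bound of Jdp2 cannot fall left of 0. On the series matrix values (-0.52 and 0.39) both fall between the dashed lines.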

How the data were processed

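Total RNA of 1 Bach2 KO and 1 WT sample was labelled with biotin by the array maker's procedure, per the labels' protocols. The authors deposited an intensity per probe and array, called non-normalized in the file header. Background had been subtracted from it (29.5% of Bach2 KO and 30.4% of WT values were below 0). A detection p-value was deposited beside each. The series matrix intensities are straight-line functions of the same deposited values (slope 0.779 and intercept 83.3 for Bach2 KO, 0.782 and 86.6 for WT), thus linear, with no centring. The sources used here do not give the scanning software.

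Intensities were corrected by normexp using the detection p-values, offset by 16, quantile normalized and put on a log2 scale (neqc, limma 3.58.1, R 4.3.3). Folds of dim genes are thereby pulled towards 1. Symbols came from GEO's platform annotation (23978 of 25697 probes) through RefSeq gene numbers. A gene was read at its brightest detected probe (detection p-value under 0.01). A gene detected on 1 array was counted by its bound against the higher of its own value and the dimmest detected probe of the other array (log2 5.81 for Bach2 KO, 5.80 for WT). With 1 array per group no test was possible, and the number of arrays limits the precision. All members were named. Of 21 related lists, genes past 1.5-fold, other bZIP factors, regulators and partners could be named. Members and lists were chosen with earlier results of these data known. The normalization and log2 differences were tested on simulated arrays, at brighter probes detected on both arrays. The bounds, the choice of probe and dim probes were not tested in this way.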

Additional observations from a re-analysis of the deposited data

How the results depend on the processing

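With 1 array per genotype, replicates could not be left out. No paired analysis was possible because each group holds 1 sample. The count of members at least 1.5-fold higher in Bach2 KO (1, Jdp2) became 0 on the series matrix values, 0 with genes detected on both arrays only, and 0 at a 2-fold threshold. The count at least 1.5-fold lower (1, Fos) became 0 on the series matrix values, 0 at a 2-fold threshold, and 2 with no detection filter, which adds Jun at levels below detection. The series matrix keeps a constant of 83.3 to 86.6 in each value, which by construction shrinks ratios of dim probes. Jdp2 moved to 0.60 with an offset of 50 and to 0.39 on the series matrix values. The other 77 of 79 member values moved by less than 0.228, the SD between probes of a gene (1734 genes). Fos did not change sign, and a bound of Jdp2 cannot. Median scaling moved the median of all genes from -0.028 to 0.082 and the split of genes past 1.5-fold to 802 higher and 341 lower, against 620 and 515 as reported. On that scale Fos was at -0.60 and Bach1 at 0.02, values that include the general shift of 0.11. The count of T cell target genes at least 1.5-fold higher was 8 of 16 with an offset of 50 and 7 of 16 on the series matrix values. Dim probes such as those of Jdp2, Mafk and Jun are limited by signal over background.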
